A study of Mus musculus with 6 samples.

Results

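The genes described here are 9 transcripts that mark resting (naive) and stem-like T cells: the transcription factors Tcf7, Lef1, Klf2, Bach2 and Satb1, the surface receptors Il7r and S1pr1, and the marker transcripts Dapl1 and Igfbp4. They were taken by symbol from the count tables, where all 9 were found among 32285 genes. The tables come from single-cell RNA sequencing of mouse spleen, made with the 10x Genomics 3' kit, in which each unique molecular identifier (UMI) stands for 1 captured RNA molecule. Wild-type C57BL/6 mice, 6 weeks old, received MCDHFD (3 libraries) or ND (3 libraries) for 7 weeks. The labels call the animals a MASH model and expand neither diet name, and they do not say whether a library is 1 spleen, so p-values measure the spread between these libraries, which may be technical.

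A naive T cell has left the thymus and has not yet met its antigen. It circulates between blood, spleen and lymph nodes, divides rarely and depends on interleukin-7 for survival. TCF-1 (the protein of Tcf7) and LEF-1 are related DNA-binding factors that set up the T lineage in the thymus and stay on in naive and stem-like memory cells. KLF2 keeps T cells resting and switches on S1pr1, the receptor for sphingosine-1-phosphate that lets lymphocytes leave lymphoid organs. BACH2 represses effector genes in T cells and also acts in B cells, and SATB1 organises chromatin in developing and mature T cells. IL-7 receptor alpha, made from Il7r, receives the survival signal. Dapl1 is a transcript used to recognise naive and stem-like CD8 T cells. Igfbp4 encodes a secreted protein that binds insulin-like growth factors, and its transcript is used as a marker of naive T cells. Effector and memory cells make the chemokine transcript Ccl5, and regulatory T cells are defined by the transcription factor Foxp3 and classically carry little IL-7 receptor alpha. Trnp1 encodes a nuclear protein, and the title of the series names it as the mark of a splenic CD8 T cell population.

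Cells were kept at 1000 or more UMIs and at most 10% mitochondrial UMIs, and lymphocyte gates were set from single transcripts. CD8 T cells held Cd3e and Cd8b1, CD4 T cells held Cd3e and Cd4, gamma delta T cells held Trdc and Cd3e, natural killer (NK) cells held Ncr1 without Cd3e, and B cells held at least 2 UMIs of Cd79a. CD8 T cells were divided by 1 or more UMIs of Ccl5 and, apart from that, of Trnp1, and CD4 T cells by 1 or more UMIs of Foxp3. An alternative with strict gates left out cells that met more than 1 gate. It also left out cells with 2 or more UMIs of Lyz2, S100a8 or Hbb-bs. The CD8 gate held 897, 833 and 744 cells in MCDHFD libraries 1 to 3 and 551, 353 and 405 in ND libraries 1 to 3, and values below keep that order of libraries. The CD4 gate held 571, 527 and 529 cells in MCDHFD libraries and 383, 343 and 328 in ND libraries, of which 57, 60 and 41 in MCDHFD libraries and 61, 56 and 44 in ND libraries were Foxp3-positive. There were 62, 60 and 26 gamma delta T cells in MCDHFD libraries and 64, 29 and 41 in ND libraries. NK cells numbered 210, 253 and 37 in MCDHFD libraries and 198, 77 and 141 in ND libraries, and B cells 3078, 3046 and 1564 in MCDHFD libraries and 4225, 2022 and 3172 in ND libraries. A level is given in CPM, UMIs of the gene per 1000000 UMIs of all gated cells of that library.

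Libraries held 21259837 to 62238012 UMIs and 3278 to 6625 kept cells. MCDHFD library 3 and ND library 2 stood apart from the other 4: their barcode lists were filtered before deposit, their median mitochondrial share was 1.68% in MCDHFD library 3 and 0.569% in ND library 2, against 3.73% to 3.96% in the others, and the form of the list was associated with 45.7% of genes in CD8 T cells. Diet was therefore fitted together with list form, and results under diet alone are named where they differ. The filtered lists were written by Cell Ranger 7.2.0 and the other 4 by 9.0.1. List form and software version therefore cannot be told apart. In the NK gate, summed NK markers stood at 8451, 8769 and 7087 CPM in MCDHFD libraries and 10997, 9461 and 8763 CPM in ND libraries. No more than 18 kept barcodes were shared by any pair of libraries.

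In the mm10 annotation Tcf7 (ENSMUSG00000000782) lies at chr11:52252371-52283014 on the minus strand. Lef1 (ENSMUSG00000027985) lies at chr3:131110471-131224356 on the plus strand. Klf2 (ENSMUSG00000055148) lies at chr8:72319033-72321656 on the plus strand. Bach2 (ENSMUSG00000040270) lies at chr4:32238804-32586108 on the plus strand. Satb1 (ENSMUSG00000023927) lies at chr17:51736187-51833290 on the minus strand. Il7r (ENSMUSG00000003882) lies at chr15:9505788-9530176 on the minus strand. S1pr1 (ENSMUSG00000045092) lies at chr3:115710433-115715072 on the minus strand. Dapl1 (ENSMUSG00000026989) lies at chr2:59484653-59505020 on the plus strand. Igfbp4 (ENSMUSG00000017493) lies at chr11:99041244-99054392 on the plus strand. Antisense genes listed in the same count tables overlap Tcf7 (A630014C17Rik), Lef1 (Gm43352) and Bach2 (Bach2os), and Bach2it1 lies within Bach2 on its own strand. The strand setting of the counting is not given in the sources used here, so reads from these overlaps cannot be told apart.

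The starts of 4 members are shown because their levels carry the contrasts that follow: Dapl1, Igfbp4 and Il7r differed by diet in at least 1 T cell gate, and Klf2 was present in every lymphocyte gate. Each stretch runs from 250 bases before to 50 bases after the transcription start listed by RefSeq (GRCm38.p6), 5′ to 3′ on the gene's strand. Capitals mark the matches to 4 short motifs that were searched on both strands, CTTTGA (TCF/LEF core), GTAAACA (FOXO), CACCC (KLF) and AGGAAG (ETS); each window holds 1 match, so none overlaps another.
Dapl1, chr2:59484403-59484702 (+): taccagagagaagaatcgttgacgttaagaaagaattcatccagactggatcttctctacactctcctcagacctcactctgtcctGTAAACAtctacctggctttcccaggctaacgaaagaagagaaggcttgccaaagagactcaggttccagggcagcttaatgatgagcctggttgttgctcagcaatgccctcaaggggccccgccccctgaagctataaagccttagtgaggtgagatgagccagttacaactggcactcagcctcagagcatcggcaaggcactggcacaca
Igfbp4, chr11:99040994-99041293 (+): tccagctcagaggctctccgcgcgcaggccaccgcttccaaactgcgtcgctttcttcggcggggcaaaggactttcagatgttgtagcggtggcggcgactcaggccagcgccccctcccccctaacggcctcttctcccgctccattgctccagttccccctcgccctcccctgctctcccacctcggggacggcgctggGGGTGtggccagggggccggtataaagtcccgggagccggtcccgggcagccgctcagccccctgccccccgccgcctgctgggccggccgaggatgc
Il7r, chr15:9529827-9530126 (-): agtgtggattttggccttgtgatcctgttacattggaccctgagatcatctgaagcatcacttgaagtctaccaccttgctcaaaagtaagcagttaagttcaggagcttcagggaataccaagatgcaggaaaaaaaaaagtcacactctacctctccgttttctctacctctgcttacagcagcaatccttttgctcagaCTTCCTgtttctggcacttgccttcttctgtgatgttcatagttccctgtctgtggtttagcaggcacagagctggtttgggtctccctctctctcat
Klf2, chr8:72318812-72319111 (+): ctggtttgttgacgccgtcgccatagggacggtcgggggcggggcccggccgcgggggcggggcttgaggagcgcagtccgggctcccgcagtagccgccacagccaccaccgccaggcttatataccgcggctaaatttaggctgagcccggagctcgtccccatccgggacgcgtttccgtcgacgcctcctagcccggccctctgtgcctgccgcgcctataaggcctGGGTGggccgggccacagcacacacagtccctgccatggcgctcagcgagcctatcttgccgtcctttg

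The Dapl1 window holds 1 forward GTAAACA match, the Igfbp4 and Klf2 windows 1 reverse CACCC match each, and the Il7r window 1 reverse AGGAAG match. Of 32851 RefSeq promoter windows of the same length, 3.65% hold GTAAACA, 57.5% CACCC, 35.4% AGGAAG and 16.0% CTTTGA. None of these 4 windows holds CTTTGA. A match describes the letters of the window and not a bound site.

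Across cell types, Tcf7, Lef1, Il7r and Dapl1 were higher in every library of the undivided CD4, CD8 and gamma delta T cell gates than in any NK or B cell library. Igfbp4 was likewise higher in CD4 and CD8 T cells, while its range in gamma delta T cells overlapped those of NK and B cells. Klf2 stood at overlapping levels in every gate, and Bach2 was highest in B cells. Among the transcription factors, Tcf7 averaged 452 ± 71.7 CPM in CD4 T cells (SD, n = 6 libraries), 418 ± 52.6 CPM in gamma delta T cells and 409.7 ± 51.5 CPM in CD8 T cells. It averaged 90.6 ± 21.4 CPM in NK cells and 29.7 ± 23.2 CPM in B cells. The 3 T cell gates overlapped one another in Tcf7, and all libraries of each stood above those of NK and B cells. Lef1 stood at 584 to 939 CPM in CD4, 364 to 830.2 in gamma delta and 614 to 958 in CD8 T cells, with 75.9 to 215 CPM in NK and 28.7 to 85.2 CPM in B cells. Klf2 stood at 349 to 615 CPM in CD4 T, 434 to 923 in gamma delta T, 547 to 879 in NK, 329.9 to 565 in B and 398 to 684 CPM in CD8 T cells, and every pair of these ranges overlapped.

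Bach2 stood at 1033, 959.7 and 442 CPM in B cells of MCDHFD libraries and 1163, 731 and 1179.7 CPM in those of ND libraries, its highest gate in every library. In CD8 T cells it stood at 690.1, 659 and 300.3 CPM in MCDHFD libraries and 616, 397 and 592 CPM in ND libraries, and in NK cells at 491, 431 and 211 CPM in MCDHFD libraries and 353, 189 and 303 CPM in ND libraries. The lowest Bach2 library of each diet was the one with a filtered list, in all 3 gates. Satb1 was present in all gates as well, with 599 ± 169.9 CPM in CD4 T, 470.2 ± 154 in gamma delta T, 398 ± 149.8 in NK, 256 ± 88.7 in B and 582 ± 179 CPM in CD8 T cells (SD, n = 6 libraries). Neighbours in the order of these means overlapped, and MCDHFD library 3 and ND library 2 lay lowest of their diets in each of the 5 gates.

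Of the receptors, Il7r stood at 329.8 to 693 CPM in CD4 T, 503 to 893 in gamma delta T and 354 to 699 in CD8 T cells, ranges that overlapped. In B cells it was 14.5 to 65.0 CPM, and in NK cells 64.1, 67.5 and 298 CPM in MCDHFD libraries and 66.4, 37.8 and 35.3 CPM in ND libraries. The high NK value came from MCDHFD library 3, which had 37 NK cells and 55 Il7r UMIs in them. S1pr1 stood at 164 to 241 CPM in CD4 T, 155 to 257 in gamma delta T, 116 to 169 in B and 158 to 223 CPM in CD8 T cells. In NK cells it was 29.6 to 69.3 CPM, and no NK library reached the lowest library of any other gate.

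Dapl1 was highest in CD8 T cells and Igfbp4 in CD4 T cells of every library, although the ranges of Igfbp4 overlapped among the 3 T cell gates. Dapl1 stood at 262, 225 and 259.6 CPM in CD4 T cells of MCDHFD libraries and 181, 159.5 and 182 CPM in those of ND libraries, and at 151 to 219.5 CPM in gamma delta T cells, whose range overlapped that of CD4 T cells. CD8 T cells held 336, 356 and 340.0 CPM in MCDHFD libraries and 397, 314 and 426 CPM in ND libraries, the highest gate in every library. Igfbp4 had the opposite order, with 195, 246 and 371 CPM in CD4 T cells against 84.6, 106 and 205 CPM in CD8 T cells of MCDHFD libraries, and 108, 282 and 128 CPM against 79.7, 158 and 85.6 CPM in ND libraries. In all 6 libraries Igfbp4 was higher in CD4 than in CD8 T cells. In B cells Dapl1 was 7.30 to 34.5 CPM and Igfbp4 2.85 to 35.8 CPM, and NK cells held 7, 34 and 0 Dapl1 UMIs in all in MCDHFD libraries and 2, 0 and 0 in ND libraries.

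**Figure D1:**
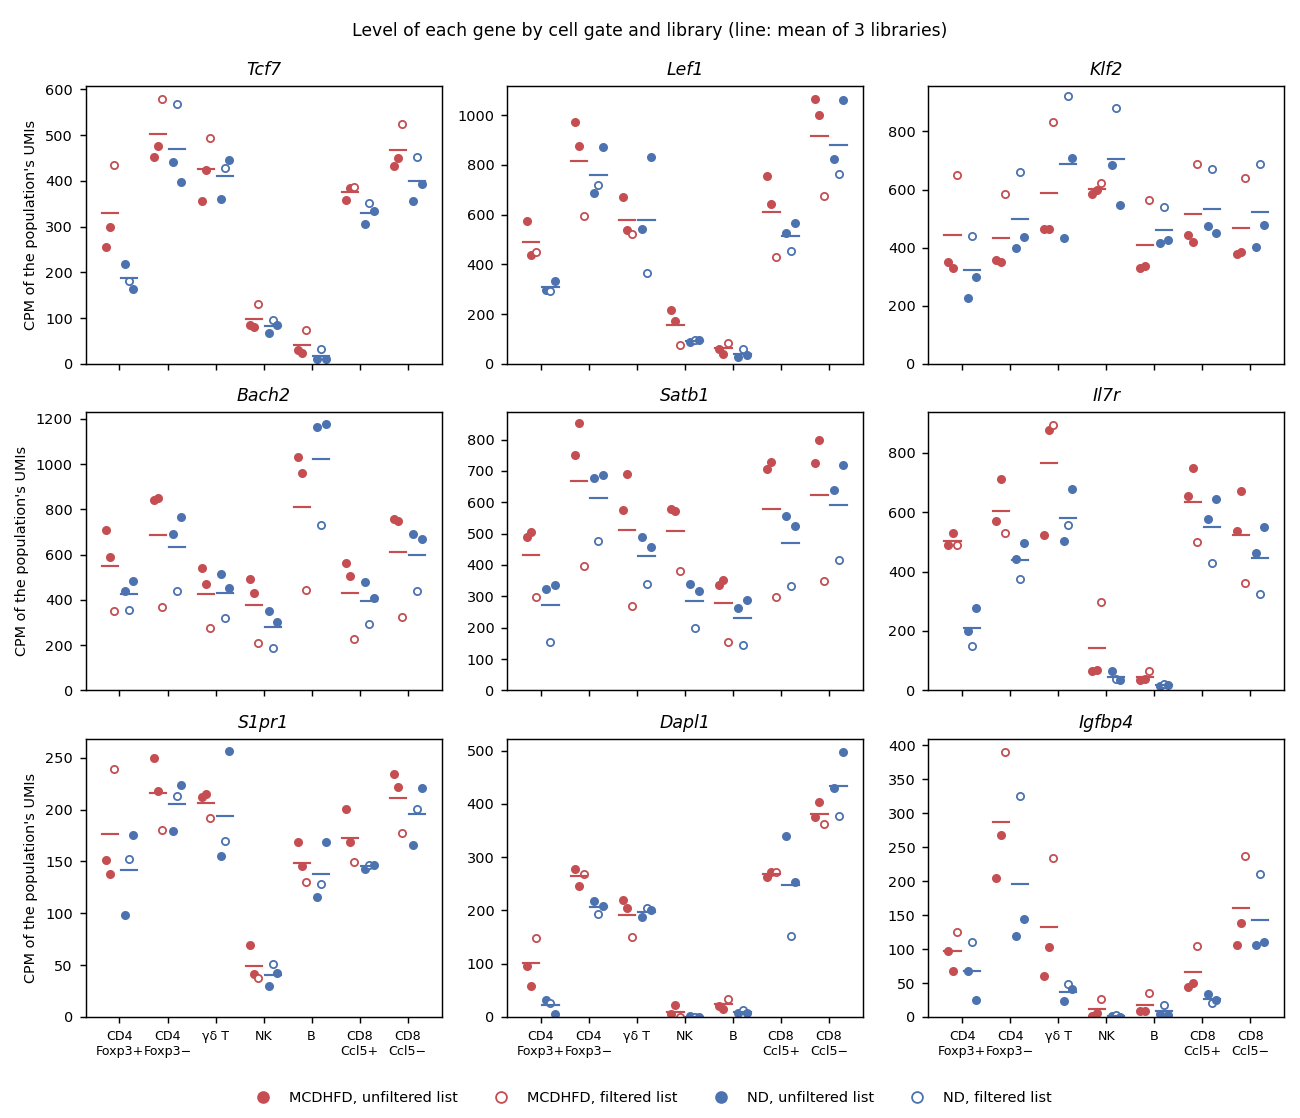
Level of each of the 9 genes in CPM (UMIs per 1000000 UMIs of the gated cells) in 7 cell gates, with 1 point per library, MCDHFD left of ND in each gate, open points for the libraries with filtered barcode lists and a line at the mean of 3 libraries. Dapl1 and Igfbp4 sit near 0 in NK and B cells, Bach2 is highest in B cells, and Klf2 overlaps between gates.

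Each gate was then set against CD8 T cells of the same libraries by edgeR's quasi-likelihood test with the library as a block, with p-values adjusted over all genes tested by the Benjamini-Hochberg method. A gene is called at an adjusted p under 0.05. CD4 over CD8 T cells called 4 of 9 members, where 26.0% of all genes tested were called. Igfbp4 was higher in CD4 T cells by log2 0.87 ± 0.11 (SE) (edgeR adjusted p = 2.1e-05). Dapl1 was lower at log2 -1.0 ± 0.12 (SE) (edgeR adjusted p = 1.2e-05), Klf2 at -0.33 and Lef1 at -0.28. Tcf7 (0.01), Bach2 (0.09), Satb1 (-0.09), Il7r (-0.19) and S1pr1 (-0.03, log2 differences) were not called.

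Gamma delta over CD8 T cells called 6 of 9 members, all lower, where 7.43% of genes were called in either direction and 3.79% lower. The log2 difference was -2.15 ± 0.17 (SE) for Dapl1 (edgeR adjusted p = 1.6e-09), -0.96 ± 0.09 (SE) for Lef1, -0.61 ± 0.09 (SE) for Satb1 and -0.49 ± 0.08 (SE) for Bach2. It was -0.79 ± 0.23 (SE) for Igfbp4 (edgeR adjusted p = 0.035) and -0.30 ± 0.09 (SE) for Tcf7 (edgeR adjusted p = 0.035). Those last 2 calls did not hold in every alternative, with adjusted p up to 0.25 for Igfbp4 and 0.20 for Tcf7. Il7r (0.16), S1pr1 (-0.08) and Klf2 (0.05) were not called. Of the gamma delta T cells, 25, 24 and 6 in MCDHFD libraries and 19, 5 and 13 in ND libraries also met the CD8 gate.

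NK over CD8 T cells called 8 of 9 members, all lower, where 43.4% of genes were called and 22.3% lower. The fitted log2 difference was -2.49 ± 0.09 (SE) for Tcf7, -2.96 ± 0.13 (SE) for Lef1, -3.19 ± 0.28 (SE) for Il7r and -2.35 ± 0.11 (SE) for S1pr1, with an edgeR adjusted p of at most 4.8e-08 for these 4. Satb1 and Bach2 differed less, at -0.85 and -1.0. Klf2 was the exception at log2 0.15 ± 0.09 (SE) (edgeR adjusted p = 0.19). B over CD8 T cells called all 9, with 8 lower and Bach2 higher by log2 0.70 ± 0.08 (SE) (edgeR adjusted p = 1.8e-05). In that comparison 61.1% of genes were called and 31.4% lower. Klf2 was lower in B cells at only log2 -0.36 ± 0.05 (SE) and S1pr1 at -0.60 ± 0.05 (SE), while Tcf7, Lef1 and Il7r were lower at -5.10, -4.94 and -5.23.

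**Figure D2:**
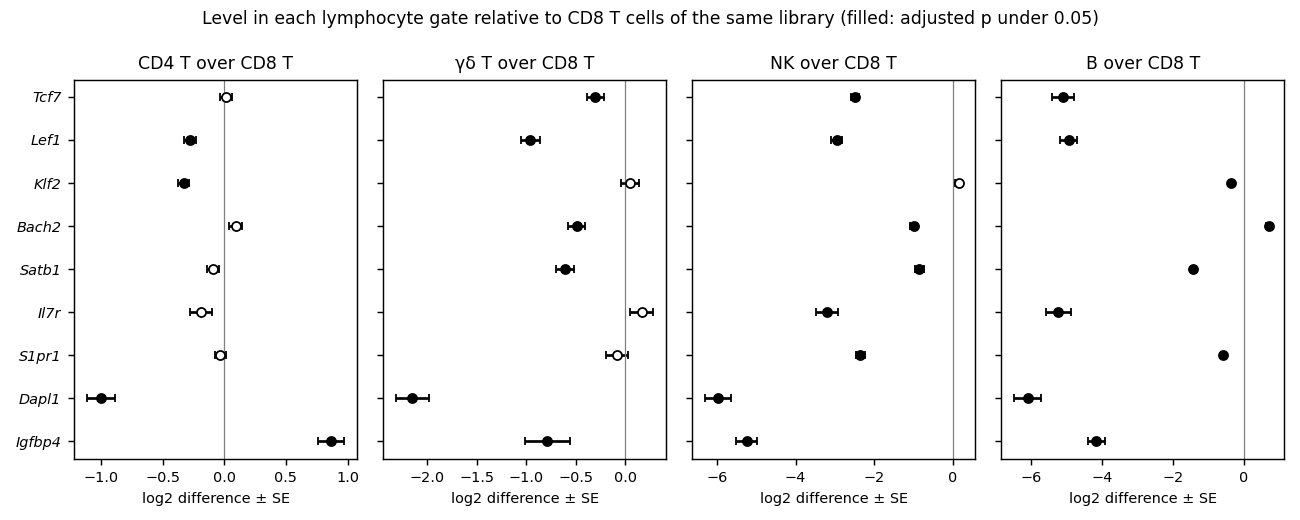
Fitted log2 difference of each gene (± SE, 6 libraries, library as a block) between CD4, gamma delta T, NK and B cells and CD8 T cells, with filled points at an adjusted p under 0.05. Igfbp4 lies above 0 in CD4 T cells, Bach2 above 0 in B cells, and Klf2 near 0 in gamma delta T and NK cells.

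Ccl5 divided the CD8 T cells into groups in which the 9 genes did not move as a block. Cells with and without Ccl5 UMIs were paired within each library at total UMIs within log2 0.2, which gave 258, 227 and 171 pairs in MCDHFD libraries and 179, 82 and 96 in ND libraries. Ccl5-positive over Ccl5-negative cells called 6 of 9 members, 4 lower and 2 higher, where 10.2% of genes tested were called. The lower ones were Lef1, Bach2, Dapl1 and Igfbp4, and the higher ones were Il7r and Klf2.

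Lef1 stood at 766, 667 and 429.6 CPM in Ccl5-positive cells against 1048, 982 and 697 CPM in Ccl5-negative cells of MCDHFD libraries, and at 543, 453 and 607 against 764, 655 and 963 CPM in ND libraries. It was lower in all 6 libraries, at log2 -0.52 ± 0.05 (SE) (edgeR adjusted p = 1.4e-06). Its partner Tcf7 moved less, with 365, 411 and 386 CPM in Ccl5-positive cells against 409, 415 and 518 CPM in Ccl5-negative cells of MCDHFD libraries and 314, 352 and 359 against 371, 394 and 344 CPM in ND libraries. Its log2 difference was -0.11 ± 0.07 (SE) (edgeR adjusted p = 0.33), and it lay below 0 in 5 of 6 libraries. The difference between Tcf7 and Lef1 in this response was not tested. Bach2 was lower in every library, at log2 -0.74 to -0.48 per library and -0.55 ± 0.05 (SE) in the fit (edgeR adjusted p = 5.2e-07). Satb1, at log2 -0.10 ± 0.06 (SE), was not called (edgeR adjusted p = 0.35). Klf2 was higher by log2 0.25 ± 0.06 (SE) (edgeR adjusted p = 0.0071) and by 0.09 to 0.34 per library, a call that was lost without MCDHFD library 2 (adjusted p = 0.058), in the ND libraries alone (0.31) and without matching on depth (0.26, at log2 0.11).

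Il7r, the interleukin-7 receptor alpha chain, ran with Klf2 and against Lef1, Bach2, Dapl1 and Igfbp4. It stood at 666, 787 and 498 CPM in Ccl5-positive cells against 473, 684 and 361 CPM in Ccl5-negative cells of MCDHFD libraries, and at 598, 432 and 693 against 485, 300.3 and 479.5 CPM in ND libraries. The log2 difference was 0.46 ± 0.06 (SE) (edgeR adjusted p = 1.1e-05), and Il7r was higher in all 6 libraries. S1pr1 stood at log2 -0.18 ± 0.07 (SE) and was not called (edgeR adjusted p = 0.11). Dapl1 was lower in Ccl5-positive cells at log2 -0.58 ± 0.09 (SE) (edgeR adjusted p = 1.3e-04). Igfbp4 differed most of the 9, with 45.0, 53.8 and 105 CPM in Ccl5-positive against 105, 125 and 238 CPM in Ccl5-negative cells of MCDHFD libraries and 35.2, 21.2 and 26.4 against 115, 239 and 108 CPM in ND libraries. Its log2 difference was -1.50 ± 0.15 (SE) (edgeR adjusted p = 1.0e-06), and no Ccl5-positive value of a library reached the Ccl5-negative value of that library.

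The part of free RNA in the Ccl5-positive gate was not tested, and the B gate used for comparison also kept cells that met the CD8 gate. B cells, which should lack Ccl5, held a Ccl5 UMI in 7.96, 12.1 and 4.54% of cells in MCDHFD libraries and 6.86, 4.50 and 7.82% in ND libraries, against 29.8, 30.0 and 23.0% in MCDHFD libraries and 33.0, 23.5 and 24.2% in ND libraries of CD8 T cells. Median UMIs per cell over the 6 libraries were 3776 to 6068 in B cells and 6754 to 9778 in CD8 T cells. With Ccl5-positive cells taken from 3 UMIs of Ccl5, a setting chosen after the data were seen, the log2 difference was -2.33 for Igfbp4, -1.01 for Dapl1, -0.68 for Lef1 and 0.63 for Il7r. The share of CD8 T cells with a Ccl5 UMI did not differ by diet beyond the spread of libraries: thinned to 1000 UMIs per cell it was 16.3, 17.2 and 14.9% in MCDHFD libraries and 20.5, 16.4 and 15.8% in ND libraries (two-sided exact permutation p = 0.5, where 0.1 is the smallest that 3 against 3 allows).

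Other gene lists gave the setting of this split. Of the effector and memory list, 16 of 19 tested genes were higher and 0 lower in Ccl5-positive cells, at a median of log2 1.51, but Ccl5 is itself on that list. Il2rb, a chain of the receptors for interleukin-2 and interleukin-15, was higher by log2 2.23 and Ly6c2 by 2.09. Of 22 further naive T cell genes, 4 were higher and 8 lower, with Ccr9 at log2 -1.51, Ccr7 at -0.59 and Actn1 at -0.51. Among 10 genes of interleukin-7 signalling, 3 were higher and 1 lower, with Bcl2 higher by 0.56, Jak1 higher by 0.23 and Stat5b lower at -0.36. Of 10 genes of KLF2 and FOXO1-dependent homing, 0 were higher and 5 lower, among them Itgae at -2.19 and Itga4 at -0.51. Of 9 tested TCF/LEF cofactors, Tle1 (-0.75) and Bcl9 (-0.56) were lower and Bcl9l (0.29) was higher. The median over all genes tested was log2 -0.01.

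CD8 T cells were also divided by Trnp1. Trnp1-positive CD8 T cells numbered 294, 393 and 473 in MCDHFD libraries and 24, 18 and 14 in ND libraries, and pairing by depth kept 294, 381 and 241 pairs in MCDHFD libraries and 24, 18 and 14 in ND libraries. Trnp1-positive over Trnp1-negative cells called 0 of 9 members, where edgeR called 0.183% of genes. Before adjustment 6 of 9 members lay under 0.05 in edgeR, as did 478 of 7666 genes tested. By DESeq2 the count of called members was 0 too. The fitted log2 differences lay from 0.09 for Bach2 to 0.35 for Igfbp4, all above 0. Lef1 stood at 0.29 ± 0.09 (SE) (edgeR adjusted p = 0.29), Tcf7 at 0.12 ± 0.08 (SE) and Il7r at 0.20 ± 0.09 (SE).

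Dapl1 stood at 398, 409.6 and 382 CPM in Trnp1-positive against 305, 319 and 326 CPM in Trnp1-negative cells of MCDHFD libraries, higher in all 3, and at 471, 398 and 405 against 489, 505 and 449 CPM in ND libraries, lower in all 3. The difference between the diets in this split was not tested, and Dapl1 was singled out after these signs were seen. In the 3 MCDHFD libraries alone Dapl1 was called, at log2 0.36 (edgeR adjusted p = 0.011), in a fit whose share of all genes called is not given here. The other 8 log2 ratios of the MCDHFD libraries ran from -0.07 to 0.48 per library. The lists tested beside them differed in effector genes: 4 of 17 tested were lower and 0 higher in Trnp1-positive cells, S100a6 (-1.36 ± 0.18 (SE)), S100a4 (-1.19 ± 0.22 (SE)), Gzma (-1.38 ± 0.27 (SE)) and the gate gene Ccl5. Of 21 tested naive genes 1 was lower, Id3, at log2 -0.61. In Ccl5-negative cells alone, Trnp1-positive over Trnp1-negative cells again called 0 members.

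**Figure D3:**
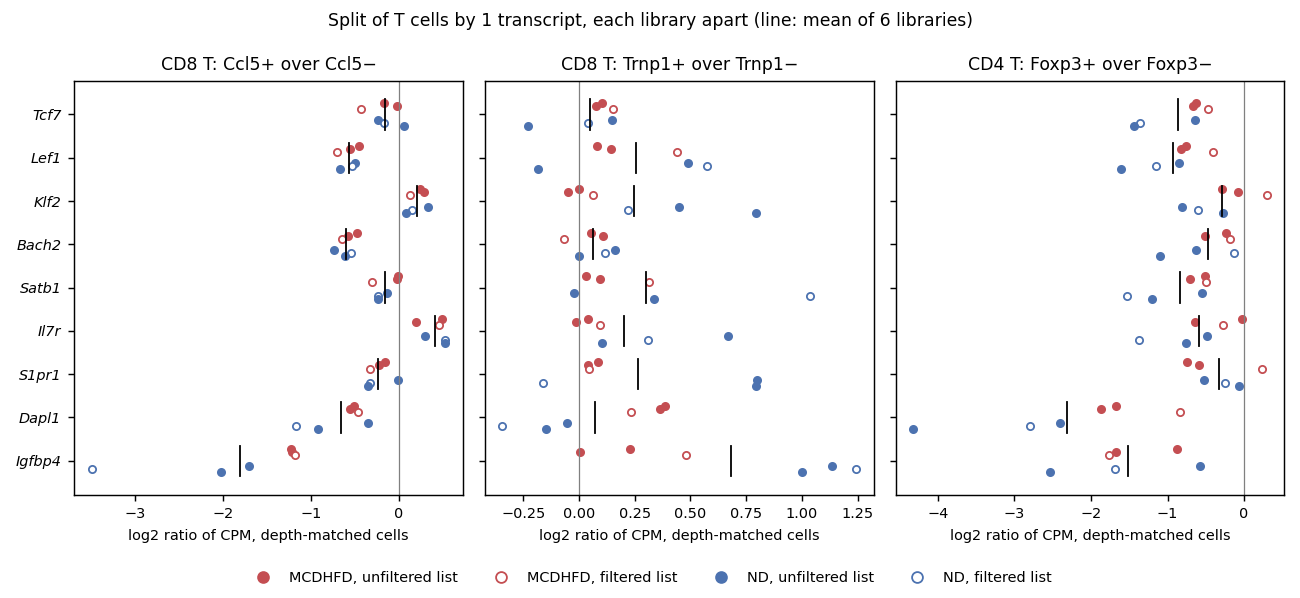
Log2 ratio of CPM between depth-matched cells with and without a UMI of Ccl5 or Trnp1 (CD8 T cells) or Foxp3 (CD4 T cells), 1 point per library and gene, MCDHFD above ND, open points for filtered lists and a black line at the mean of 6 libraries. Igfbp4 and Dapl1 lie farthest below 0 in the Ccl5 and Foxp3 splits, and Il7r lies above 0 in the Ccl5 split and below 0 in the Foxp3 split.

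In CD4 T cells, all 9 genes were called lower in Foxp3-positive than in Foxp3-negative cells at matched depth, Klf2 and S1pr1 near the threshold, over 57, 60 and 41 pairs in MCDHFD libraries and 60, 55 and 43 in ND libraries. Of all genes tested, 7.43% were called and 3.31% were lower. Summed regulatory T cell markers other than the gate gene (Il2ra, Ctla4, Ikzf2) stood at 1656, 1977 and 691 CPM in the Foxp3-positive cells of MCDHFD libraries and 2243, 1149.5 and 2114 CPM in those of ND libraries, against 181, 204 and 38.2 CPM in MCDHFD libraries and 314, 93.8 and 252 CPM in ND libraries in Foxp3-negative cells.

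Dapl1 stood at 94.8, 57.9 and 149 CPM in Foxp3-positive against 302, 211 and 267 CPM in Foxp3-negative cells of MCDHFD libraries, and at 34.5, 22.5 and 6.33 against 183, 156 and 127 CPM in ND libraries, a log2 difference of -2.03 ± 0.20 (SE) (edgeR adjusted p = 1.5e-07). Igfbp4 was lower at log2 -1.54 ± 0.16 (SE) (edgeR adjusted p = 4.0e-07), with -2.53 to -0.58 per library. Lef1 was lower at -1.03 ± 0.12 (SE), Tcf7 at -0.94 ± 0.12 (SE) and Satb1 at -0.91 ± 0.12 (SE) (log2, edgeR adjusted p at most 8.4e-06). These 5 genes were lower in every library and under every alternative tried. Bach2 was lower at log2 -0.57 ± 0.11 (SE) (edgeR adjusted p = 0.0012).

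Il7r stood at 491, 531 and 491 CPM in Foxp3-positive against 501, 827 and 594 CPM in Foxp3-negative cells of MCDHFD libraries, and at 212, 162 and 310.4 against 298, 419.7 and 526 CPM in ND libraries. The fitted log2 difference was -0.67 ± 0.12 (SE) (edgeR adjusted p = 6.3e-04), with -0.64 to -0.03 per MCDHFD library and -1.37 to -0.49 per ND library. The calls for Klf2 (-0.39 ± 0.12 (SE), edgeR adjusted p = 0.044) and S1pr1 (-0.44 ± 0.13 (SE), edgeR adjusted p = 0.045) were close to the threshold. Of 16 alternatives, 7 kept the call for Klf2 and 6 that for S1pr1, and DESeq2 lost both. Both were lower in 5 of 6 libraries and higher in MCDHFD library 3. In the MCDHFD libraries alone 5 of 9 members were called, and in the ND libraries alone 8 of 9. Each of these fits used 3 libraries, and the share of all genes called in each is not given here. The counts therefore do not compare the diets.

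Among the other lists, 5 of 9 tested interleukin-7 signalling genes were higher in Foxp3-positive cells and 0 lower, with Cish, Pim1 and Socs1 higher by log2 1.87, 1.02 and 0.92. Cish and Socs1 are feedback inhibitors induced by cytokine signals through STAT5, which interleukin-2 also drives. Of 19 tested naive genes, 2 were higher and 3 lower, with Id3 higher by log2 0.95, Actn1 lower at -1.16 and Ccr7, a homing receptor, lower at -0.88. Ccr7 was also the 1 of 9 tested homing genes that was called. Of 8 tested TCF/LEF cofactors, Tle4 and Tle5 were lower at -0.61 and -0.35. Of 11 tested effector genes 1 was higher, Il2rb at 1.58, and 4 were lower, among them Id2 at -1.78 and Ly6c2 at -1.44.

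MCDHFD was then set against ND within each gate. In CD8 T cells none of the 9 genes was called, where edgeR called 0.513% of genes. Before adjustment 0 of 9 lay under 0.05 in edgeR, where 1512 of 11102 genes tested did. The count of called members by DESeq2 was likewise 0. The fitted log2 differences ran from -0.21 for Klf2 and -0.21 for Dapl1 to 0.19 for Igfbp4, each with an SE between 0.10 and 0.12. Tcf7 stood at 406, 426 and 490.1 CPM in MCDHFD libraries and 337, 423 and 376 CPM in ND libraries, Lef1 at 958, 871 and 614 CPM in MCDHFD libraries and 716, 677 and 915 CPM in ND libraries, and Il7r at 578, 699 and 397 CPM in MCDHFD libraries and 504, 354 and 577 CPM in ND libraries. The diets overlapped in each of these 3 genes on this scale, and after TMM scaling Tcf7 no longer overlapped, nor did 3.97% of all genes with MCDHFD higher. In CPM without TMM scaling, the range of all 3 genes within a diet was wider than the difference of the means.

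No member was called by diet in the divided CD8 T cells either. In Ccl5-negative CD8 T cells 0 of 9 members were called (1.11% of genes), in Ccl5-positive cells 0 of 9 (0.629%) and in Trnp1-negative cells 0 of 9 (0.236%). At an unadjusted edgeR p under 0.05 lay 1337 of 10451, 1046 of 9059 and 1151 of 10573 genes tested. DESeq2 called 0 members in each of the 3. At that unadjusted threshold there were 0, 1 and 1 of the 9 members. The 1 in Ccl5-positive cells was Igfbp4, at 44.2, 50.7 and 105 CPM in MCDHFD libraries and 33.6, 21.1 and 24.5 CPM in ND libraries, which did not overlap (log2 1.00 ± 0.26 (SE), edgeR adjusted p = 0.14). After TMM scaling, Igfbp4 and Tcf7 did not overlap there, nor did 4.21% of all genes with MCDHFD higher. The 1 in Trnp1-negative cells was Dapl1, at 305, 316 and 307 CPM in MCDHFD libraries and 394, 309 and 427 CPM in ND libraries (log2 -0.35 ± 0.13 (SE), edgeR adjusted p = 0.37). No member was called for a difference in diet effect between Ccl5-positive and Ccl5-negative cells in edgeR's interaction term, where 0.278% of genes were called. Before adjustment 1 of 9 members, Igfbp4, lay under 0.05 in edgeR, as did 557 of 10783 genes tested. DESeq2 called 0 members. The Igfbp4 term was log2 0.91 ± 0.24 (SE) (edgeR adjusted p = 0.26), and it was called without ND library 1 and without the filter on low counts, with adjusted p up to 1.00 in the other alternatives. Of the naive genes outside the 9, 2 of 22 were higher and 1 lower in Ccl5-negative cells with MCDHFD: Bcl2 (log2 0.67 ± 0.11 (SE)), Nsg2 (0.59) and Id3 (-0.91). Of 17 tested effector genes 0 were higher and 3 lower there, S100a4 (-1.22), Ly6c2 (-0.70) and Id2 (-0.69).

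In CD4 T cells 2 of 9 members were higher with MCDHFD, Il7r and Igfbp4, where 1.77% of genes were called and 0.543% higher. Il7r stood at 564, 693 and 527 CPM in MCDHFD libraries and 394, 329.8 and 467 CPM in ND libraries, with no overlap (log2 0.58 ± 0.12 (SE), edgeR adjusted p = 0.047). Igfbp4 stood at 195, 246 and 371 CPM in MCDHFD libraries and 108, 282 and 128 CPM in ND libraries. It was higher with MCDHFD among the 4 libraries with unfiltered lists and between the 2 with filtered lists, although ND library 2 overlapped the MCDHFD range (log2 0.72 ± 0.13 (SE), edgeR adjusted p = 0.033). Dapl1, at 262, 225 and 259.6 CPM in MCDHFD libraries and 181, 159.5 and 182 CPM in ND libraries, did not overlap between the diets and missed the threshold (log2 0.51 ± 0.11 (SE), edgeR adjusted p = 0.060). Of all genes tested, 4.38% did not overlap with MCDHFD higher, after TMM scaling. With diet as the sole term the estimates for Il7r and Igfbp4 were 0.57 and 0.66, and no gene of the whole table was called. Each of MCDHFD libraries 1 and 2 and ND libraries 1 and 3, left out alone, also ended both calls.

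The Foxp3-negative CD4 T cells, which make up most of that gate, called 0 of 9 members, where edgeR called 1.41% of genes. Before adjustment 4 of 9 lay under 0.05 in edgeR, as did 1524 of 10173 genes tested. DESeq2 called 2 members in these cells. Il7r stood there at log2 0.45 ± 0.11 (SE) (edgeR adjusted p = 0.089) and Igfbp4 at 0.63 ± 0.14 (SE) (edgeR adjusted p = 0.066).

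In the Foxp3-positive CD4 T cells Il7r and Dapl1 were called, both higher with MCDHFD, where 2.32% of genes were called and 0.457% higher. Il7r stood at 491, 531 and 491 CPM in MCDHFD libraries (207, 266 and 125 UMIs) and 201, 150.1 and 276 CPM in ND libraries (117, 73 and 99 UMIs), a log2 difference of 1.25 ± 0.21 (SE) (edgeR adjusted p = 0.0011). Every MCDHFD library lay above every ND library. At 1000 UMIs per cell, an Il7r UMI was found in 40.4, 41.7 and 53.7% of Foxp3-positive cells of MCDHFD libraries and 16.4, 16.1 and 22.7% of those of ND libraries, and unthinned in 80.7, 76.7 and 80.5% in MCDHFD libraries and 55.7, 46.4 and 56.8% in ND libraries. In B cells at 1000 UMIs these shares were 2.05, 1.74 and 3.96% in MCDHFD libraries and 0.639, 1.73 and 0.820% in ND libraries.

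Dapl1 stood at 94.8, 57.9 and 149 CPM in Foxp3-positive cells of MCDHFD libraries (40, 29 and 38 UMIs) and 32.7, 26.7 and 5.58 CPM in those of ND libraries (19, 13 and 2 UMIs), a log2 difference of 2.00 ± 0.37 (SE) (edgeR adjusted p = 0.0032). All MCDHFD libraries lay above all ND libraries, at counts that carry a large sampling error. Tcf7 was at 256, 299.6 and 436 CPM in MCDHFD libraries and 219, 181 and 165 CPM in ND libraries (log2 0.72 ± 0.22 (SE), edgeR adjusted p = 0.095), and Lef1 at 576, 437 and 451 CPM in MCDHFD libraries and 298, 292 and 335 CPM in ND libraries (log2 0.62 ± 0.19 (SE), edgeR adjusted p = 0.10). These 4 genes did not overlap between the diets, which 5.06% of all genes tested did with MCDHFD on the higher side. The estimates of the remaining members were 0.64 for Satb1, 0.47 for Igfbp4, 0.41 for Klf2, 0.28 for Bach2 and 0.26 for S1pr1, all above 0 and none called.

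Both calls in Foxp3-positive cells held in the 4 libraries with unfiltered lists alone, at log2 1.06 for Il7r and 1.72 for Dapl1, and without any 1 library. With diet as the sole term the estimates were 1.24 and 2.03, at adjusted p of 0.30 and 0.35. RNA of both genes was also higher with MCDHFD in barcodes under 100 UMIs, which hold free RNA: Il7r at 119 and 154 CPM in MCDHFD libraries 1 and 2 and 60.8 and 59.1 CPM in ND libraries 1 and 3, and Dapl1 at 143 and 144 CPM in the same MCDHFD libraries and 80.2 and 91.8 CPM in the same ND libraries. In B cells, which should lack Dapl1, it stood at 21.5, 14.9 and 34.5 CPM in MCDHFD libraries and 7.30, 12.5 and 7.74 CPM in ND libraries. The part of free RNA in these differences was not tested. The 3 regulatory T cell markers summed above overlapped between the diets. They were lower with MCDHFD among the 4 libraries with unfiltered lists and between the 2 with filtered lists, which was not tested. At 1000 UMIs per cell 2.45, 3.42 and 2.65% of CD4 T cells held a Foxp3 UMI in MCDHFD libraries and 3.66, 3.79 and 5.79% in ND libraries (exact permutation test, two-sided, p = 0.1, which no split of 3 against 3 can go below). With strict gates the exact permutation p was 0.3. Leaving out 1 library moved the difference of -1.57 percentage points to between -1.95 and -0.88, the smaller without ND library 3. The share stood unthinned at 9.98, 11.4 and 7.75% in MCDHFD libraries and 15.9, 16.3 and 13.4% in ND libraries, beside 0.315 to 1.02% of B cells, at median UMIs of 5697 to 7916 and 3776 to 6068 per cell.

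**Figure D4:**
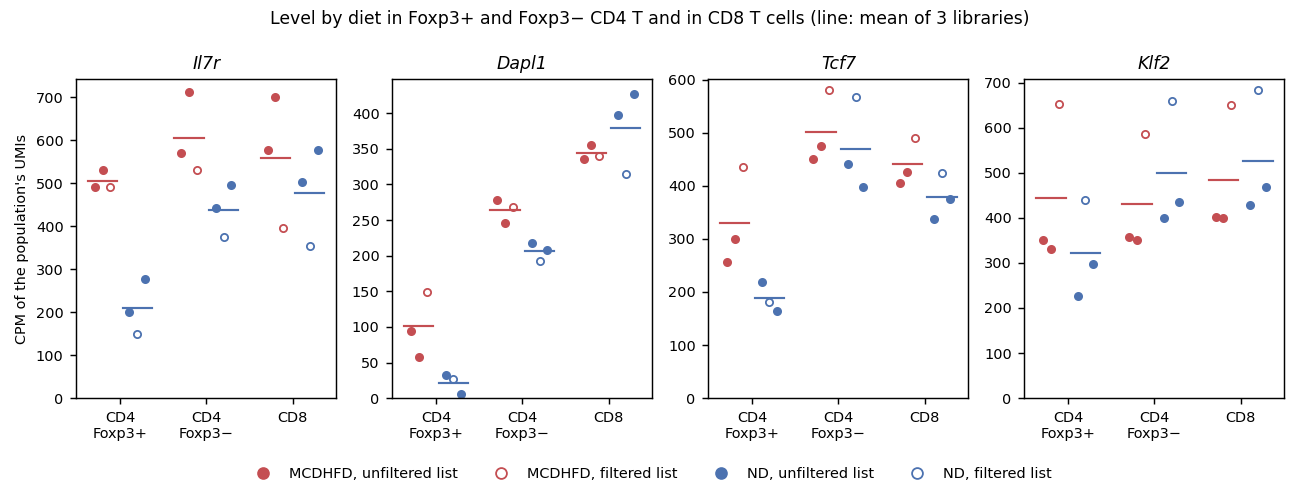
Level of Il7r, Dapl1, Tcf7 and Klf2 in CPM in Foxp3-positive and Foxp3-negative CD4 T cells and in CD8 T cells, 1 point per library, MCDHFD left of ND, open points for filtered lists and a line at the mean of 3 libraries. In Foxp3-positive cells the MCDHFD libraries lie above the ND libraries for Il7r, Dapl1 and Tcf7, and in CD8 T cells the diets overlap.

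Whether the diet effect differed between gates was tested by interaction terms. Foxp3-positive over Foxp3-negative cells called 2 members, where 0.396% of genes were called and 0.104% in that direction. The diet effect on Il7r was larger in Foxp3-positive cells by log2 0.79 ± 0.17 (SE) (edgeR adjusted p = 0.049) and that on Dapl1 by 1.64 ± 0.34 (SE) (edgeR adjusted p = 0.043). Both lie close to the threshold, and both were lost without MCDHFD library 1, without MCDHFD library 3, without ND library 2 or without the list form term. Il7r was also lost without ND library 1, with strict gates and under upper-quartile scaling.

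CD4 over CD8 T cells likewise called Il7r and Dapl1, where 0.418% of genes were called and 0.235% in that direction. The diet effect was larger in CD4 T cells by log2 0.50 ± 0.08 (SE) for Il7r (edgeR adjusted p = 0.011) and by 0.76 ± 0.10 (SE) for Dapl1 (edgeR adjusted p = 0.0039). For Dapl1 the MCDHFD estimate lay above 0 in CD4 T cells (0.51) and below 0 in CD8 T cells (-0.21, log2), neither of which was called by itself. The Dapl1 difference was called under all 11 alternatives. That of Il7r was lost without MCDHFD library 2 (adjusted p = 0.055) and without the list form term.

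Other lists in CD4 T cells moved in part beside them. Of 22 further naive genes 3 were higher and 1 lower with MCDHFD. Bcl2, a survival factor, was higher by log2 0.96 ± 0.11 (SE) (edgeR adjusted p = 0.0072) and Ly6c1 by 1.17 ± 0.15 (SE), and Id3 stood at -0.91. Bcl2 is also on the list of interleukin-7 signalling, of which it was the 1 called gene of 10. Of 21 tested effector genes 1 was higher and 5 lower, among them S100a4 (-1.65), Cxcr3 (-0.92) and Klrg1 (-2.36). In Foxp3-positive cells 3 of 12 tested effector genes were lower, Klrg1 (-1.95), Cxcr3 (-1.60) and Nkg7 (-1.39), and of 21 naive genes 1 was higher, Zfp36l2 (1.06). The diet effect on Bcl2 was larger in CD4 than in CD8 T cells by log2 0.47 ± 0.08 (SE) (edgeR adjusted p = 0.025).

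Gamma delta T cells called 1 of 9 members, Igfbp4, where 0.264% of genes were called. It stood at 60.8, 103 and 233 CPM in MCDHFD libraries (41, 59 and 34 UMIs) and 23.2, 48.6 and 40.7 CPM in ND libraries (13, 10 and 13 UMIs), with no overlap, as for 3.43% of genes with MCDHFD higher after TMM scaling (log2 1.66 ± 0.32 (SE), edgeR adjusted p = 0.033). With strict gates the estimate was 0.68 (edgeR adjusted p = 0.90). The call was also lost without each of MCDHFD libraries 2 and 3 and each of the 3 ND libraries. The other 8 estimates ran from -0.26 (Klf2) to 0.36 (Il7r). On the naive list Ly6c1 was higher by log2 3.51.

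NK cells called 2 of the 7 members that could be tested, both higher with MCDHFD, where 3.01% of genes were called; Dapl1 and Igfbp4 had too few UMIs. Satb1 stood at 579, 571 and 379 CPM in MCDHFD libraries and 339, 200.4 and 316 CPM in ND libraries, with no overlap, as for 6.53% of genes with MCDHFD higher after TMM scaling (log2 0.76 ± 0.14 (SE), edgeR adjusted p = 0.014). Lef1 stood at 215, 173 and 75.9 CPM in MCDHFD libraries and 87.3, 95.7 and 95.3 CPM in ND libraries (log2 0.79 ± 0.20 (SE), edgeR adjusted p = 0.045). MCDHFD library 3, with 37 NK cells, lay below the ND libraries in Lef1, so the call rests on MCDHFD libraries 1 and 2 and was lost without either, as well as without ND library 1 or 3 and in DESeq2. The Satb1 call was lost without MCDHFD library 1, MCDHFD library 2 or ND library 1. Bcl2 was higher there too, by log2 1.28 ± 0.17 (SE) (edgeR adjusted p = 0.0032). Of 23 effector genes 3 were higher, Gzmk (2.40), Il18r1 (0.73) and Cd44 (0.63), and 1 lower, Klrg1 (-1.13, named after its value was seen). In barcodes under 100 UMIs Lef1 stood at 180 and 157 CPM in MCDHFD libraries 1 and 2 and 87.6 and 91.2 CPM in ND libraries 1 and 3. Satb1 stood there at 247 and 243 CPM in the same MCDHFD libraries and 172 and 135.5 CPM in the same ND libraries. The part of free RNA in the 2 NK calls was not tested.

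In the B gate 4 members were higher with MCDHFD, where 4.36% of genes were called and 1.68% higher. Tcf7 stood at 29.3, 23.1 and 72.9 CPM in MCDHFD libraries and 9.87, 32.6 and 10.5 CPM in ND libraries (log2 1.24 ± 0.10 (SE), edgeR adjusted p = 0.0056). Il7r stood at 33.5, 36.7 and 65.0 CPM in MCDHFD libraries and 14.5, 20.7 and 17 CPM in ND libraries (log2 1.26 ± 0.13 (SE), edgeR adjusted p = 0.0099), and Dapl1 (1.27) and Igfbp4 (1.04) were also called. The 4 CD8 T cell markers (Cd3e, Cd3d, Cd8a, Cd8b1) summed to 84.5, 65.4 and 263 CPM in the B gate of MCDHFD libraries. In that of ND libraries they summed to 41.8, 129.7 and 38.3 CPM, and none of them was at 0. ND library 2 stood above MCDHFD libraries 1 and 2 in these markers and in Tcf7, and below both in Il7r and Dapl1. Of the B gate cells, 72, 53 and 99 in MCDHFD libraries and 43, 54 and 28 in ND libraries also met the CD8 gate. With strict gates the estimates were 0.97 for Tcf7, 1.03 for Il7r, 1.47 for Igfbp4 and 1.18 for Dapl1, the last no longer called. With predicted doublets removed only Tcf7 was called, at 0.89, and all 4 calls were lost without ND library 1 and with diet as the sole term. The part of T cell RNA in these differences was not tested further. Bach2 stood at log2 -0.45 ± 0.11 (SE) (edgeR adjusted p = 0.064).

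**Figure D5:**
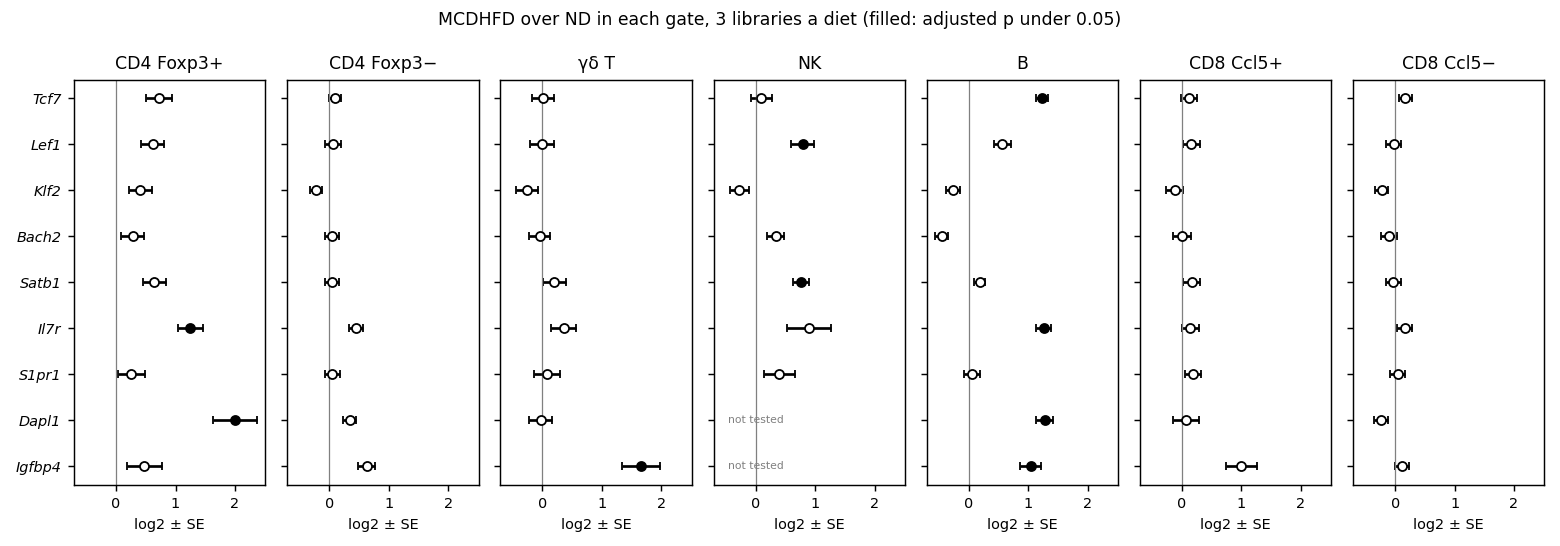
Fitted log2 difference between MCDHFD and ND (± SE, 3 libraries a diet, list form in the model) of each gene in 7 gates, with filled points at an adjusted p under 0.05. Il7r and Dapl1 are filled in Foxp3-positive CD4 T cells, Igfbp4 in gamma delta T cells, Satb1 and Lef1 in NK cells, Tcf7, Il7r, Dapl1 and Igfbp4 in B cells, and none in the CD8 gates.

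Seen per cell, a CD4 T cell thinned to 1000 UMIs held 3.01, 3.08 and 2.93 of the 9 genes on average in MCDHFD libraries and 2.42, 2.59 and 2.79 in ND libraries. In Foxp3-positive cells the means were 2.26, 2.35 and 2.51 in MCDHFD libraries and 1.66, 1.66 and 1.95 in ND libraries, with no overlap between the diets in either gate. In CD8 T cells they were 3.08, 3.16 and 2.78 in MCDHFD libraries and 2.88, 2.70 and 3.06 in ND libraries, with overlap. Cells with none of the 9 genes made up 10.5, 6.67 and 4.88% of Foxp3-positive cells in MCDHFD libraries and 27.9, 23.2 and 18.2% in ND libraries, against 4.24, 2.40 and 3.36% in MCDHFD libraries and 4.72, 6.23 and 3.46% in ND libraries of CD8 T cells. With strict gates the shares in Foxp3-positive cells were 4.55, 21.7 and 10.3% in MCDHFD libraries and 27.3, 19.0 and 21.1% in ND libraries, and the diets overlapped. B cells held 1.36, 1.35 and 1.25 of the 9 genes in MCDHFD libraries and 1.37, 1.28 and 1.43 in ND libraries, and Bach2 was found in 58.2, 56.8 and 39.1% in MCDHFD libraries and 62.7, 52.0 and 63.1% in ND libraries of them.

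Over 42 sums (7 gates without shared cells in 6 libraries), the genes named next were among the 3 whose log2 CPM ran most like each member, as a description in which libraries and depth are shared. Tcf7 ran with Thy1 (Pearson r = 0.97) and Il7r, and Lef1 with Slco3a1 (0.95) and Tcf7. Il7r ran with Tcf7 (0.96) and Tnfsf8. Dapl1 ran with Themis (0.94), Dzip1 and Tdrp, and Igfbp4 with Dgka (0.89), Cd5 and Als2cl. Bach2 ran with Foxp1 (0.92), Dipk1a and Aff3, S1pr1 with Fam169b (0.89), Il21r and Prkd2, and Satb1 with Nlk (0.88), Pknox1 and Rictor. Klf2 ran with Gnptg (0.87), Ubald2 and Rab8a. Among the members themselves r ran from -0.61 between Klf2 and Bach2 to 0.96 between Tcf7 and Il7r.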

How the data were processed

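UMI counts per gene and cell barcode were deposited by the authors and are not normalized. They were written by Cell Ranger 9.0.1 for the 4 libraries with unfiltered lists and 7.2.0 for the 2 with filtered lists, per the file headers. The submitters' processing notes name Cell Ranger 9.1.0, Seurat 4.3.0 and mm10. The alignment and strand settings are not given in the sources used here. The members and the other gene lists were chosen with earlier results of these data known.

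Cells with at least 1000 UMIs and at most 10% mitochondrial UMIs were kept, and gates used raw counts. Doublets stayed in, except where Scrublet's calls are named as removed; it marked 0 and 1 cells in the libraries with filtered lists, where it has not worked. Counts were summed per library and gate. Sums were tested with edgeR 4.0.16 (R 4.3.3; TMM, filterByExpr, glmQLFit and glmQLFTest) over all genes, with Benjamini-Hochberg adjustment. Diet was fitted with list form, and splits and cell types with the library as a block. Splits by 1 transcript used cells paired 1 to 1 within log2 0.2 of total UMIs. Shares were thinned to 1000 UMIs. DESeq2 1.42.0 was an alternative. The fit was also run on counts simulated from its own design and dispersion. Such counts cannot show how well the design suits these libraries. All 9 members were named throughout, with up to 3 called genes of smallest p per other list and the 3 genes most like each member by Pearson r, of which some are not reported here. Intervals from counting do not cover amplification.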

Additional observations from a re-analysis of the deposited data

Results flagged for a closer look

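Il7r and Dapl1 were called for a difference in diet effect between cell gates by edgeR's interaction term. In Foxp3-positive over Foxp3-negative CD4 T cells the difference was log2 0.79 ± 0.17 (SE) for Il7r (edgeR adjusted p = 0.049) and 1.64 ± 0.34 (SE) for Dapl1 (edgeR adjusted p = 0.043). In CD4 over CD8 T cells it was log2 0.50 ± 0.08 (SE) for Il7r (edgeR adjusted p = 0.011) and 0.76 ± 0.10 (SE) for Dapl1 (edgeR adjusted p = 0.0039). The Foxp3 terms were called in 4 of 11 alternatives for Il7r and 7 of 11 for Dapl1, and the CD4 over CD8 terms in 9 of 11 for Il7r and 11 of 11 for Dapl1.

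Dapl1 in Trnp1-positive over Trnp1-negative CD8 T cells lay above 0 in the 3 MCDHFD libraries, at a mean log2 ratio of 0.33, and below 0 in the 3 ND libraries, at a mean of -0.18. The difference of these means, 0.51, was not tested. This gene and split were picked for their opposite signs, after all members and splits were looked through. The share of all genes with such opposite signs is not given here, so it cannot be said how often chance gives this pattern. The ND ratios rest on 24, 18 and 14 pairs of cells.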

How the results depend on the processing

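Of 2472 values of single members under alternatives, 2305 matched the main fit in being called or not called, 109 lost a call and 58 gained one. The 2305 include values called in neither fit, of which 109 differed in sign. No called value changed sign. Counts of called members that moved by more than 1.5 times are given first. With diet as the sole term 0 members were called in the B, CD4, Foxp3-positive, NK and gamma delta gates, and with the replicate block also 0 in each of these 5. Same-numbered libraries of the diets correlated at 0.289, -0.650 and -0.565 in their deviations from the diet means. Pairs 2 and 3 each joined a filtered and an unfiltered list. These values therefore cannot show whether same-numbered libraries share more than a number. Without the list form term the Foxp3 interaction called 0 and the CD4 over CD8 interaction 1. Without a filter on low counts there were 4 in NK cells, 2 in Foxp3-negative cells, 1 in Ccl5-positive CD8 T cells, 2 in the Trnp1 split, 4 in the Foxp3 interaction and 1 in the Ccl5 interaction. DESeq2 called 2 in Foxp3-negative cells, 1 in NK and 0 in gamma delta T cells. Stricter cell limits gave 1 in NK and 0 in gamma delta T cells. Strict gates gave 2 in Foxp3-negative cells, 0 in gamma delta T cells and 1 in the Foxp3 interaction, where upper-quartile scaling also gave 1. Removing doublets gave 1 in B and 1 in Foxp3-negative cells. The unfiltered libraries alone gave 1 in Foxp3-negative, 1 in Trnp1-negative CD8 and 0 in gamma delta T cells. The MCDHFD libraries alone gave 5 in the Foxp3 split and 1 in the Trnp1 split. Leaving out 1 library gave 0 to 6 members in B, 0 to 2 in CD4 and in NK, 0 to 1 in gamma delta T, Foxp3-negative, Ccl5-positive and Trnp1-negative cells, 2 in Foxp3-positive cells and 0 in all CD8 and in Ccl5-negative CD8 T cells. It gave 0 to 2 in the Foxp3 and Ccl5 interactions and 1 to 3 in that of CD4 over CD8. In the comparisons with a library block, leaving out 1 library gave 7 to 9 in the Foxp3 split, 5 to 7 in the Ccl5 split, 0 in the Trnp1 split, 4 to 6 in gamma delta over CD8 and in CD4 over CD8, 8 to 9 in NK over CD8 and 9 in B over CD8. Among smaller moves, DESeq2 gave 3 in CD4 T cells, 6 in B cells, 7 in the Foxp3 split, 4 in gamma delta over CD8 and 3 in the CD4 over CD8 interaction. Stricter cell limits and removing doublets each gave 3 in CD4 and 3 in Foxp3-positive cells. The Foxp3 share, MCDHFD minus ND, was -3.39 percentage points at 2000 UMIs and -5.52 unthinned, against -1.57 at 1000 UMIs and -1.95 to -0.88 there with 1 library left out. The causes were not tested.

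With 3 libraries a diet, of which 1 each had a filtered list, every diet result rests on few libraries. In Foxp3-positive cells Dapl1 rests on 2 to 40 UMIs a library.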
